A study of Homo sapiens with 6 samples.

Results

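The regions described here are stretches of open chromatin called in HET-1A, a non-cancerous human esophageal epithelial line immortalised with the SV40 T antigen, and in neither of the esophageal squamous cell carcinoma lines KYSE-30 and KYSE-150. In ATAC-seq the Tn5 transposase inserts into exposed DNA. The authors deposited a list of peaks for each of 6 libraries, with 2 libraries a line: libraries 1 and 2 of HET-1A, 4 and 6 of KYSE-30, and 7 and 8 of KYSE-150. HET-1A was grown in a bronchial epithelial basal medium and the carcinoma lines in RPMI/F12 with serum, so line and medium cannot be told apart. No group carried a further treatment, and each line is a single established line. The regions were chosen by the presence of called peaks. All peaks were merged where they shared at least 1 bp (hg19), and a region was kept if it held a HET-1A peak, held no KYSE peak and lay more than 3 kb from every transcription start site. A set of 5 segments was left out: chromosome 8 from 115 to 121 Mb and from 128 to 130 Mb, chromosome 11 from 68 to 72 Mb, chromosome 18 from 3 to 5 Mb and chromosome 19 from 30 to 33 Mb. Of 23972 merged regions, 11306 had a peak in HET-1A and none in a KYSE library (47.2%). Of these, 6132 were more than 3 kb from a start site, and 666 of the 6132 lay in the segments left out. The remaining 5466 regions are 49% of the 11161 distal regions outside the segments. The share describes the rule and nothing is read from it. Of the 5466, 5378 had a peak in library 2 alone, 80 in library 1 alone and 8 in both.

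The peak lists differed greatly in length. HET-1A library 1 had 168 peaks and library 2 had 15979, the KYSE-30 libraries had 1255 and 11671, and the KYSE-150 libraries had 547 and 259. The HET-1A-only distal regions are therefore, in nearly every case, a statement about library 2, set against KYSE-30 library 6. Among the 1331 distal regions called in both of these long lists, HET-1A library 1 called 0.826%, KYSE-30 library 4 called 6.91% and the KYSE-150 libraries called 1.65% and 1.05%, so that the lack of a peak in a short list carries little information. The sequencing behind the lists was estimated from the peaks themselves. Along with its p-value, a peak's fold enrichment gives the tags (extended read ends) at the summit and the local background. The smallest local background of a library stood at 3.34 tags per 200 bp in HET-1A library 2, 1.88 in library 1, 1.49 in KYSE-30 library 6 and between 2.36 and 2.80 in the other KYSE libraries. Local background divided by this smallest value is called relative background below. A peak at a relative background of 1 needed at least 12 tags to be called in HET-1A library 2 and at least 8 in KYSE-30 library 6. With the library 2 tags scaled by the ratio of these backgrounds (0.445), 4277 of the 5386 regions with a library 2 peak (79.4%) would have reached 8 tags, an estimate that takes no account of a raised local background. Among the 1331 shared regions, the ratio of summit tags, KYSE-30 library 6 over HET-1A library 2, had a median of 0.727 (quartiles 0.548 to 0.964). These regions were called in both lists, so their ratio need not hold for the HET-1A-only ones, and the estimate depends on the ratio used. Of the 5386, 42.0% had a relative background over 1.5 in library 2. A fold enrichment below 3.62, the lowest that KYSE-30 library 6 called at a relative background of 1, was found in 1938 (36.0%). With 2 libraries against 2, an exact two-sided permutation test cannot give a p-value under 0.33, and no test between lines was run. Shares are given with Wilson 95% intervals, which cover counting error over regions of a single library and not the spread between cultures.

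Open chromatin away from start sites is where most enhancers and insulators lie. Enhancers of epithelial cells are commonly bound by AP-1, a dimer of JUN and FOS family proteins that recognises the palindrome TGAGTCA, which reads TGACTCA on the other strand. TEAD factors, the DNA-binding partners of YAP1 in the Hippo pathway, often sit beside AP-1, and p63, the member of the p53 family that maintains basal squamous cells, binds a longer element of its own. CTCF marks insulators and the anchors of chromatin loops. Of the 12 squamous markers examined, HET-1A library 2 had a peak within 3 kb of a start site of 5 (KRT15, KRT6A, KRT17, EPCAM and DSP) and KYSE-30 library 6 of 3 (EPCAM, GRHL2 and ESRP1). Of 12 mesenchymal markers, HET-1A library 2 had such a peak at FN1 and THY1, and KYSE-30 library 6 at VIM and COL3A1. No marker of either kind had one in the other 4 libraries. TP63, KRT5 and KRT14, which define basal squamous cells, had none in any library. Among the HET-1A-only distal regions, 2 each were nearest to KRT17 and CDH1, 1 each to EPCAM, DSP and FN1, and 3 to ZEB2, and the other 18 markers had none. KYSE-30-only distal regions were nearest to TP63 and EPCAM (2 each), GRHL2, ESRP1, ZEB2 and TWIST1 (1 each) and PRRX1 (3).

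The sequences below are 200 bp of hg19 around the summit, on the forward strand, with matches in capitals. The first 6 are shown for the AP-1 core, marked by the capitals. Among them are 5 of the 10 strongest HET-1A-only distal regions, in introns of CNTN5, CDC42BPB, SYT16, PDE7B and the non-coding LINC02899. The sixth, 652627 bp from CDH12, has 3 cores.
CNTN5 intron, chr11:100199743-100199942: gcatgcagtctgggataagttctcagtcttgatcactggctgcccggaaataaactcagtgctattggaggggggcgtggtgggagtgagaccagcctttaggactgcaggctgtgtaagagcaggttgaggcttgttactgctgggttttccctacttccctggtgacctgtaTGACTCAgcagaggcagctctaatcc
CDC42BPB intron, chr14:103453625-103453824: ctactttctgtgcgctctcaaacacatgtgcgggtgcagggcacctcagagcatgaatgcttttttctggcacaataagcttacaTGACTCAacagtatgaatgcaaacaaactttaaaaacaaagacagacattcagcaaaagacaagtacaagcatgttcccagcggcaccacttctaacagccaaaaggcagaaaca
SYT16 intron, chr14:62431894-62432093: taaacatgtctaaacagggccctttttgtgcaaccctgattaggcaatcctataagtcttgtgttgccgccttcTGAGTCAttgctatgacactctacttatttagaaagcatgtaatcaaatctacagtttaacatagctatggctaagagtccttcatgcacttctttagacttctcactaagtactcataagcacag
PDE7B intron, chr6:136243384-136243583: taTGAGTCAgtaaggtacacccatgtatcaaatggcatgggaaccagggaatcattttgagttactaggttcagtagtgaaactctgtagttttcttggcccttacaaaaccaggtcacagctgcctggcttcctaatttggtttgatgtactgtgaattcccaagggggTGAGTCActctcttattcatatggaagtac
LINC02899 intron, nearest CDH10, chr5:24065993-24066192: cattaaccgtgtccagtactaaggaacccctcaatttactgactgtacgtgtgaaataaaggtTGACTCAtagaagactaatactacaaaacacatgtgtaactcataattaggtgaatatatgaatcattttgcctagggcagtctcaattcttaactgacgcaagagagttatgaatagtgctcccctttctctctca
Intergenic, nearest CDH12, chr5:21237099-21237298: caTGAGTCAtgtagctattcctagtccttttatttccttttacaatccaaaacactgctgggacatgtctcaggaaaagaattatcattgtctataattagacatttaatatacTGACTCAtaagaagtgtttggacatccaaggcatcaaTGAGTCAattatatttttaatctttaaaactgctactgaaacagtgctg

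Another 4 windows, again with the AP-1 core in capitals, lie nearest to genes of epithelial identity and signalling. They are shown as examples with the core. The strongest regions nearest to PERP, TFAP2A, GRHL3, TFAP2C, SMAD3, BMP4 and TCF7L2 held no core and are not shown. The KLF4 region lies 260291 bp from that gene. CDH3 encodes P-cadherin, the cadherin of basal squamous cells, KLF4 is a transcription factor of epithelial differentiation, YAP1 is the co-activator of the Hippo pathway, and TNFAIP3 encodes the NF-kappaB inhibitor A20.
CDH3 intron, chr16:68692576-68692775: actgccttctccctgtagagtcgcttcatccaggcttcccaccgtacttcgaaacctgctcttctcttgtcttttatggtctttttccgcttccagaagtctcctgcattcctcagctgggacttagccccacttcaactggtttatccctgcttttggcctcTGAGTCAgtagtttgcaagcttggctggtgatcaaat
Intergenic, nearest KLF4, chr9:110513089-110513288: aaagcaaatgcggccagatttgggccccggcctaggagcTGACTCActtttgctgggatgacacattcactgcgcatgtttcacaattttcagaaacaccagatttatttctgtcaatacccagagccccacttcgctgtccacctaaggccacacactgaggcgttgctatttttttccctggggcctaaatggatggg
YAP1 intron, chr11:102049077-102049276: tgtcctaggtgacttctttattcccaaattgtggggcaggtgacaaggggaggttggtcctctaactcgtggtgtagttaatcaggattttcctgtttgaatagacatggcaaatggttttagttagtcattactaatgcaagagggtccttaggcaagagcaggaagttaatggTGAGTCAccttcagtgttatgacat
Intergenic, nearest TNFAIP3, chr6:138129397-138129596: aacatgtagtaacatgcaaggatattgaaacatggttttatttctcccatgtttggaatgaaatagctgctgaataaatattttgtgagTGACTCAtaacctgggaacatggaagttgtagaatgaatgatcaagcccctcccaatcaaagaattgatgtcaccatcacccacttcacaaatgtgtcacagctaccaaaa

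The last 3 windows stand for other kinds of region in the set. The first is the strongest with a CTCF match (in capitals). The second is the strongest in library 2 and holds neither an AP-1 core nor a CTCF match. Other motifs, such as the TEAD match in this second window, are not marked. The third is the strongest of those called in library 1 alone and is a simple repeat, in which the word GGCT occurs 35 times.
Intergenic, nearest TRA2A, chr7:23586677-23586876: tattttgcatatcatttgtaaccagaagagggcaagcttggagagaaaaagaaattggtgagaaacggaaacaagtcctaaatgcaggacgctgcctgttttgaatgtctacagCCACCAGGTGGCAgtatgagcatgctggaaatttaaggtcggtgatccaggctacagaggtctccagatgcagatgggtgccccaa
SIPA1L1 intron, chr14:71839306-71839505: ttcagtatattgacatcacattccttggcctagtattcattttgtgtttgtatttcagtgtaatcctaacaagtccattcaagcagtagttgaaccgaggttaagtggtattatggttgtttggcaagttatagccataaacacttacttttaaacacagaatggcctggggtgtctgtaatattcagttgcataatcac
Intergenic, nearest TP53TG3B, chr16:33294164-33294363: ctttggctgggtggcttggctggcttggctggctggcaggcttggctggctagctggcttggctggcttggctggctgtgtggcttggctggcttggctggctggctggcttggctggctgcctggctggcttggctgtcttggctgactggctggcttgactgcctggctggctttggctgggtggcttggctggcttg

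Most of the HET-1A-only distal regions were modest peaks. In library 2 their fold enrichment ran from 1.97 to 9.09 with a median of 3.91, on 12 to 87 tags at the summit (median 22). The 1362 distal regions of the same library that were shared with KYSE-30 had a median fold enrichment of 4.73 and a maximum of 14.5. The median width of the HET-1A-only regions was 251 bp and that of the KYSE-30-only distal regions 253 bp. In the 88 regions with a library 1 peak the median fold enrichment was 4.57 and the highest 10.1. Fold enrichments of different libraries rest on different backgrounds and are not otherwise compared. At the edge of the rule, the regions just inside the distance of 3 kb lay 3012, 3015 and 3017 bp from a start site (of PEAR1, LINC00686 and CHST6), and those just outside 3000, 2997 and 2996 bp. The weakest library 2 peaks among the members had q-values of 0.0410, 0.0393 and 0.0345. The median distance from a HET-1A-only region to the nearest KYSE peak was 58938 bp, and 105 regions (1.92%) had a KYSE peak within 1000 bp.

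The 10 strongest regions in library 2 had fold enrichments of 8.06 to 9.09. The region in an intron of SIPA1L1, which encodes a Rap GTPase-activating protein, reached 9.09 on 39 tags. An intergenic region at chr5:30099709-30100152, 1093641 bp from CDH6, reached 8.98 on 38 tags, and one at chr8:53737919-53738200, 79516 bp from the autophagy gene RB1CC1, reached 8.97 on 39 tags. The CNTN5 window shown above had a fold enrichment of 8.75 on 55 tags, the CDC42BPB window 8.74 on 49 tags and the SYT16 window 8.58 on 40 tags. A region in an intron of LINC01937, 163195 bp from TWIST2, stood at 8.74 on 42 tags. The last of the 10 were chr6:3900336-3900648, 50716 bp from FAM50B (8.20), the LINC02899 intron (8.11) and the PDE7B intron (8.06). These 10 lay at or near the background of the library (relative background 1.00 to 1.61), and 7 of them held an AP-1 core.

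**Figure D1:**
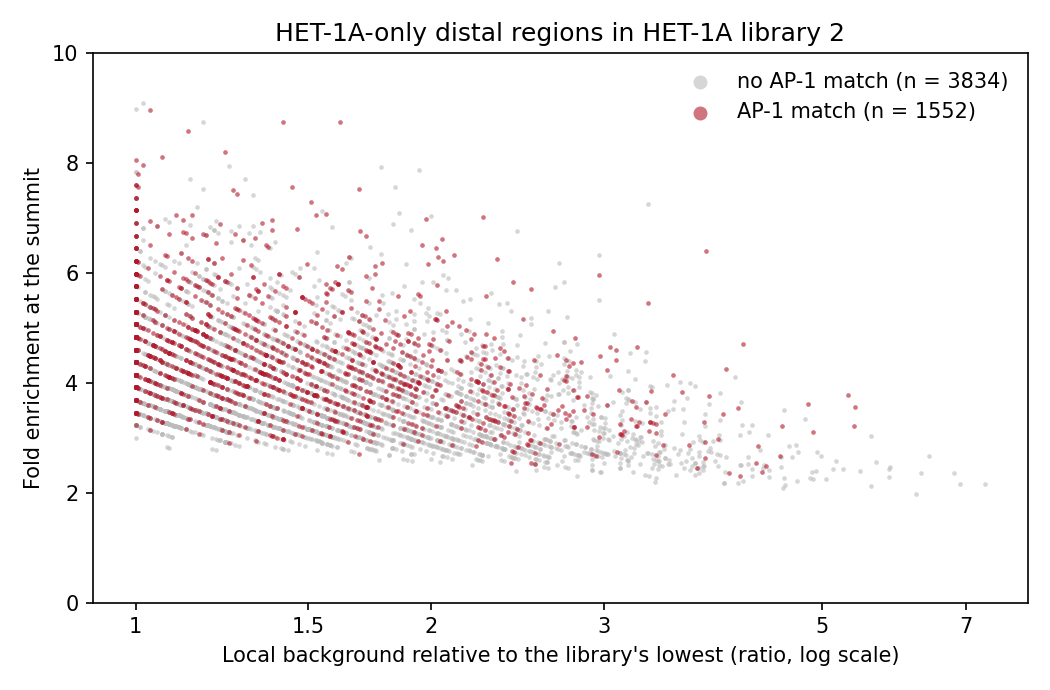
Each point is 1 of the 5386 HET-1A-only distal regions with a peak in HET-1A library 2, with the local background relative to the library's lowest on the x axis (log scale) and the fold enrichment at the summit on the y axis, red where the 200 bp window holds an AP-1 core. Regions over 8-fold lie at a relative background under 2, and red points thin out toward low fold enrichment and high background.

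Regions called in both HET-1A libraries numbered 8. The clearest lay in an intron of CD96, a receptor of lymphocytes, at chr3:111274106-111275001, with a fold enrichment of 7.88 on 28 tags in library 1 and 5.30 on 22 tags in library 2. A region 132933 bp from ZNF217 on chromosome 20 had 6.30 and 3.72, one at chr1:143167942-143168385 had 6.51 and 3.64, one in an intron of FER1L6 had 5.35 and 3.37, and one 41552 bp from IFFO2 had 4.82 and 4.55. The other 3 had a raised local background in both libraries: 2 lay on chromosome 17, in intergenic sequence 10926 bp from TBC1D3F and in an intron of the pseudogene NPEPPSP1 (relative background 2.85 and 3.53 in libraries 1 and 2 for the first, 3.47 and 4.38 for the second) and 1 at chr20:29649465-29649827 (5.45 and 5.04). The AP-1 core was present in both chromosome 17 regions and in none of the other 6 windows. Of the 5 strongest regions of library 1 alone, the first 2, 31000 bp from TP53TG3B and 374784 bp from PLGLB1, were simple repeats with 35 and 30 copies of a 4-letter word in 200 bp, and another lay in an intron of NBPF1.

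By place, 51.5% of the HET-1A-only distal regions lay in introns, 43.2% in distal intergenic sequence and 5.38% touched an exon. The shared distal regions (51.3% in introns, 43.9% intergenic) and the 4073 KYSE-30-only distal regions (54.6% and 40.9%) were placed much alike. The regions differed in reach: 18.7% of the HET-1A-only regions (17.7 to 19.8%) lay more than 100000 bp from every protein-coding start site, against 20.9% of the shared regions (18.8 to 23.1%) and 27.6% of the KYSE-30-only regions (26.2 to 29.0%). The median distance to a protein-coding start site was 25530 bp. For 44.6% the nearest start site of any kind belonged to a protein-coding gene, and for 28.5% to a long non-coding RNA.

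The regions were spread unevenly over the genome. Arm 20q held 232 regions, or 6.98 per Mb, and 5p held 257, or 5.55 per Mb, followed by 17p (4.44), 22q (3.98), 19p (3.97), 6p (3.95), 16q (3.81), 17q (3.70) and 9q (3.42). The emptiest arms were Xq (0.129 per Mb), Xp (0.224), 4p (0.405), 10p (0.513) and 4q (0.694). The other arm of the same chromosome often differed: 20p had 1.64 per Mb, 5q 0.967 and 9p 1.15. KYSE-30-only regions had 0.902 per Mb on 20q and 1.71 on 20p, and 2.05 on 5p and 2.09 on 5q. On chromosome 9 they had the same direction as the HET-1A-only regions, with 1.76 per Mb on 9q and 0.303 on 9p. The local background of the regions moved with their density on some of these arms. The median relative background of the regions was 2.12 on 20q and 1.09 on 20p, 1.65 on 5p and 1.06 on 5q, and 1.5 on 9q and 1.13 on 9p, whereas 6p, with 3.95 per Mb, stood at 1.24 and 22q at 1.36. The GC content was 46.0% on 20q and 41.8% on 20p, and 39.2% on 5p and 39.6% on 5q. The part of local background and of GC content in the density was not tested.

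**Figure D2:**
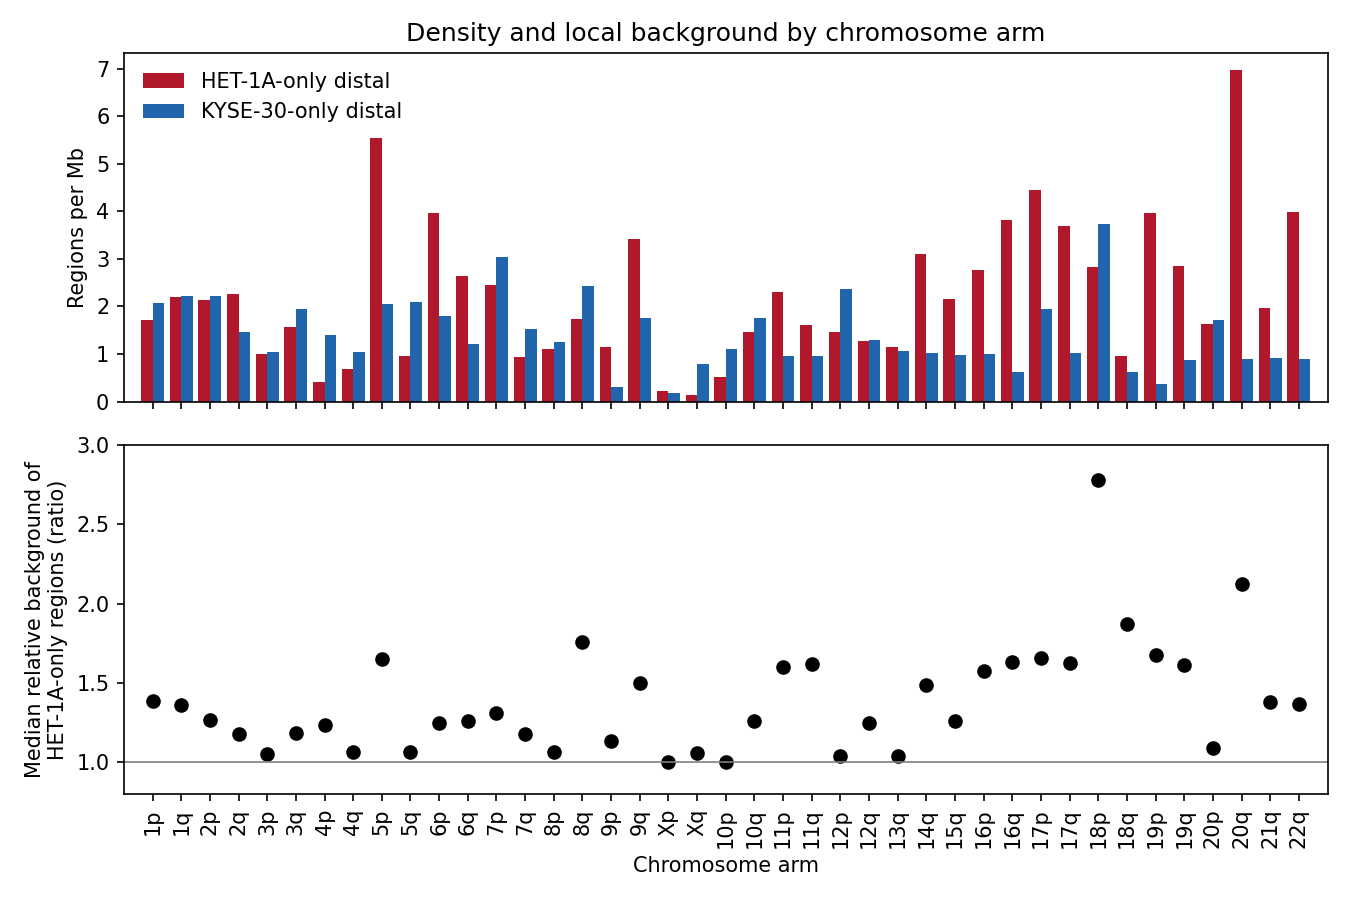
The upper panel gives regions per Mb of known sequence on each chromosome arm for HET-1A-only (red) and KYSE-30-only (blue) distal regions, and the lower panel the median relative background of the HET-1A-only regions in HET-1A library 2. The tallest red bars are 20q (6.98) and 5p (5.55), and the highest background is on 18p (2.78).

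On a finer scale, 1639 windows of 1 Mb held at least 1 region, with a median of 2, and 55 windows with 10 or more held 695 regions (12.7%). The fullest was the first Mb of chromosome 5, with 32 regions at a median relative background of 3.85 and a median fold enrichment of 2.61, and the next Mb of that chromosome held 18 at 4.01. Chromosome 8 from 126 to 127 Mb held 23 (2.88), chromosome 18 from 33 to 34 Mb held 21 (3.67) and the first Mb of chromosome 18 held 18 (3.78). The window from 48 to 49 Mb on chromosome 20 held 17 (2.27) and that from 35 to 36 Mb on chromosome 11 held 16 (1.90), 2 of them nearest to CD44. The other 1 of the 8 fullest windows had a median relative background of 1.42. Over all 5386 regions with a library 2 peak, 20.7% had a relative background over 2 and 5.27% over 3.

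Regions also stood in rows. When near neighbours were joined (the widest gap between HET-1A-only regions was 12490 bp), 939 regions (17.2%, interval 16.2 to 18.2%) stood in 428 rows of at least 2, against 7.62% of the shared regions (6.33 to 9.15%) and 13.1% of the KYSE-30-only regions (12.1 to 14.2%). These shares also grow with the number and clustering of regions in a set. The longest row had 10 regions over 58.6 kb at ZDHHC11B at a relative background of up to 7.33, in a gene with a near-identical neighbour, ZDHHC11; how reads were divided between such copies was not tested. The rows of 5 lay at SLC9A3 and ZNF469 (median relative background 4.22 and 2.32) and at NBPF1. Rows of 4 at a relative background between 1.49 and 1.82 lay at ENSA, PLEKHG6, CMIP, FOXL2 and APOD, with median fold enrichments of 4.98, 4.28, 4.34, 4.43 and 4.27. The row at CMIP covered 8.24 kb of an intron and the row at FOXL2 8.68 kb of intergenic sequence.

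The AP-1 core was the sequence that set the HET-1A-only distal regions apart from their surroundings. It stood in the 200 bp window of 1556 of the 5466 (28.5%, interval 27.3 to 29.7%), against 2.93% (2.52 to 3.42%) of windows of the same length 10 kb downstream and 3.30% (2.86 to 3.81%) 10 kb upstream. Among all 7-letter words it had by far the largest difference from the downstream sequence, and the next 6 words were the core shifted by 1 letter. The first word that was not a shifted core was TGAATCA, 1 letter away from it, at 8.65% against 2.70%. Matches gathered at the summit. Within 100 bp lay 1781, at a median of 34 bp, while the stretches from 400 to 500 bp on both sides, together as wide, held 208. The core was less frequent than in regions shared with KYSE-30 (54.6%) and in KYSE-30-only distal regions (37.4%), and more frequent than in HET-1A-only regions within 3 kb of a start site (13.5%). The intervals of these shares do not overlap, but the KYSE-30-only regions come from another library with another threshold. The 88 regions with a library 1 peak held the core in 6.82% (their downstream windows in 1.15%), and those with a library 2 peak in 28.8%.

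**Figure D3:**
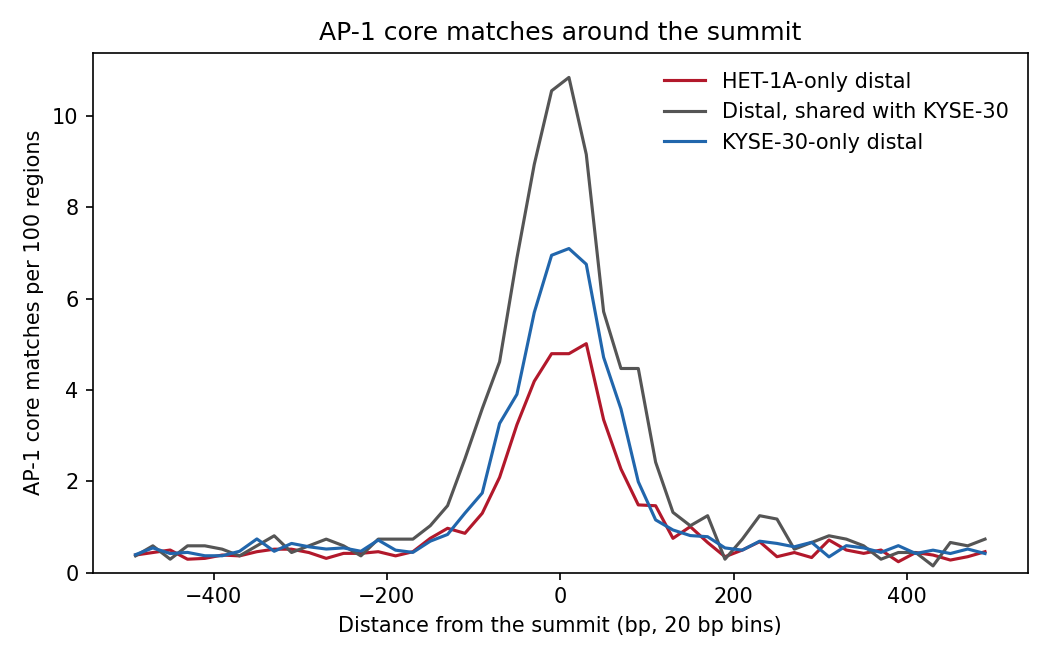
AP-1 core matches per 100 regions in bins of 20 bp by distance from the summit, for HET-1A-only distal regions (red), distal regions shared with KYSE-30 (grey) and KYSE-30-only distal regions (blue). All 3 lines peak at the summit and fall to a low level beyond 200 bp, and the red line is the lowest at the summit.

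The share of AP-1 followed the strength of the peak. In 5 classes of nearly equal size by fold enrichment in library 2, from the lowest to the highest, the core stood in 11.5%, 19.6%, 28.9%, 38.3% and 45.8% of the HET-1A-only distal regions (intervals 9.73 to 13.5% in the lowest and 42.8 to 48.8% in the highest). Classes by q-value gave 11.2% in the weakest and 42.3% in the strongest, and classes by tag count 17.9% and 35.6%. Regions shared with KYSE-30, sorted into the same limits of fold enrichment in the same library, held the core in 36.2% (24.0 to 50.5%, 47 regions), 55.3%, 46.0%, 51.8% and 60.2% (56.4 to 63.9%, 653 regions), above the HET-1A-only regions in each class. HET-1A-only regions near start sites stayed between 10.2% and 16.2% in every class. In KYSE-30 library 6 the KYSE-30-only distal regions showed a like gradient, from 20.9% in their lowest class to 56.3% in their highest. By relative background, the core stood in 36.6% of HET-1A-only regions at the background of the library (33.7 to 39.6%), 28.5% at 1 to 1.5 times, 28.4% at 1.5 to 2 times and 22.7% over 2 times (20.3 to 25.2%), where the median fold enrichment was 3.25 and the median GC content of the window 55.5%. In the KYSE-30-only regions the same classes gave 41.1%, 36.9%, 43.0% and 39.5%.

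**Figure D4:**
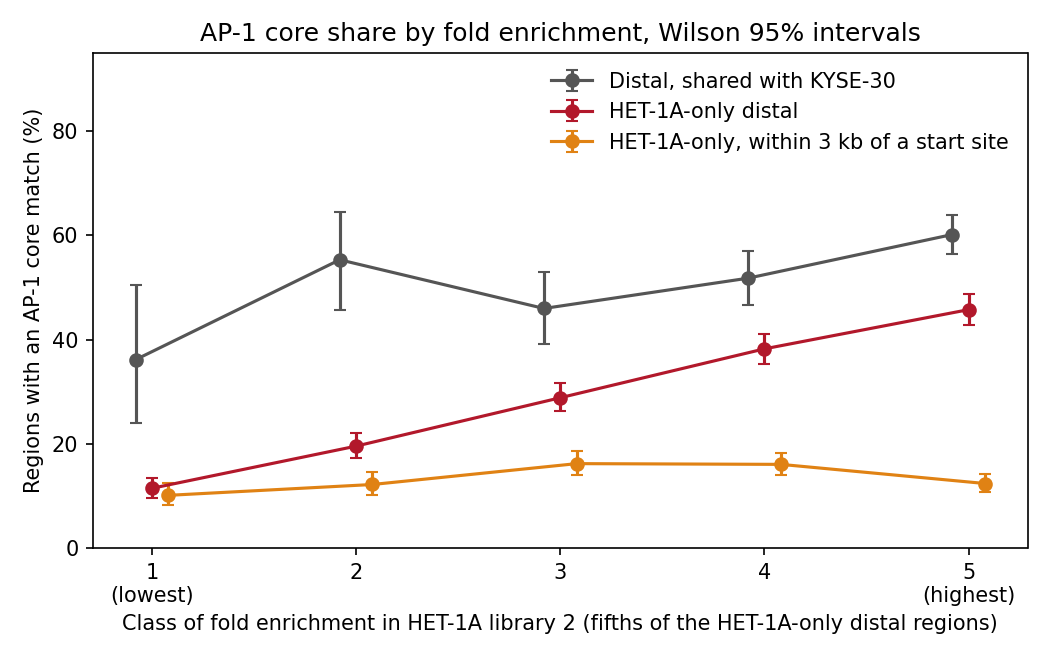
The share of regions with an AP-1 core by class of fold enrichment in HET-1A library 2, with Wilson 95% intervals as bars. The 5 classes hold nearly equal numbers of HET-1A-only distal regions. Red points rise from 11.5 to 45.8%, grey points (distal, shared with KYSE-30) lie above them in each class, and orange points (HET-1A-only, near a start site) stay between 10.2 and 16.2%.

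In library 2 the 1552 regions with it had a median fold enrichment of 4.37 and those without it 3.76, with median widths of 255 and 250 bp and median distances to a protein-coding start site of 27599 and 24674 bp. The extended core that small MAF and NRF2 dimers prefer, GCTGAGTCA, was in 2.82% of regions and 0.275% of the downstream windows. It contains the AP-1 core, so that its matches are also counted there.

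CTCF and the p53 family also differed from the surroundings, at low shares. The 13-letter CTCF consensus was in 78 HET-1A-only distal regions (1.43%, interval 1.14 to 1.78%) against 3 of 5454 downstream (0.0550%) and 2 of 5458 upstream windows (0.0366%). It was in 0.806% of the shared and 1.03% of the KYSE-30-only regions. The matches lay at a median of 19 bp from the summit, and 4 of the regions had both CTCF and AP-1. From the lowest to the highest class of fold enrichment there were 1, 7, 21, 31 and 18 regions with CTCF. The strongest 4, chosen after their values were seen, lay 14940 bp from TRA2A (fold enrichment 7.95), 81386 bp from PAPOLG (6.23), in an exon of DMRT1 (6.22) and 51992 bp from YPEL2 (6.14). The p53 family element was in 32 regions (0.585%, 0.415 to 0.825%) against 2 downstream (0.0367%) and 4 upstream windows (0.0733%), 0.366% of the shared and 0.196% of the KYSE-30-only regions. The strongest 4 with it, likewise chosen afterwards, lay in TMEM217 (6.37), 686046 bp from CDH18 (6.18), 306638 bp from LNPK (6) and 188379 bp from MRPS30 (5.76). The element in the CDH18 region overlaps an AP-1 core.

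Other motifs rose less. TEAD (ACATTCC) was in 5.27% of regions against 2.66% downstream, below the 7.76% of the KYSE-30-only and 7.25% of the shared regions, and its share was 7.43% in the class of highest fold enrichment and 4.27% in the lowest. RUNX (TGTGGTT) was in 4.34% (3.83 to 4.91%) against 3.30% (2.86 to 3.81%) downstream and 3.74% (3.27 to 4.27%) upstream, where the intervals overlap, and in 7.27% of the KYSE-30-only regions. FOX (TGTTTAC) was in 5.38% against 2.68%, CEBP (TTGCNNAA) in 12.4% against 9.08%, and the glucocorticoid receptor half-site pair (ACANNNTGT) in 7.74% against 5.70%. For CEBP and the glucocorticoid receptor the KYSE-30-only regions held 9.97% against 11.7% and 6.51% against 6.17% in their own downstream windows. SP1 and KLF (GGGCGGG) was in 3.75% against 1.74%, and ETS (CCGGAAG) in 1.70% against 0.733%, far below the 31.9% and 10.3% of HET-1A-only regions near start sites. The E-box of ZEB and SNAI (CAGGTG) was in 22.5% against 19.7%, SOX (AACAATG) in 4.17% against 3.19%, NF-kappaB (GGANTTTCC) in 1.13% against 0.660%, STAT (TTCCNGGAA) in 0.988% against 0.660% and the CRE (TGACGTCA) in 0.348% against 0.110%. The octamer ATGCAAAT of OCT factors was less frequent than downstream, at 1.08% against 1.67%. So was AGATAAG, which GATA factors bind, at 1.83% against 2.53%. For SOX, NF-kappaB, STAT, the CRE, OCT and GATA the intervals of the regions and of the downstream windows overlap. The NFI consensus was in 3 regions and 1 downstream window. All were searched on both strands. The windows had a median GC content of 49.0% and the downstream windows 45.0%, which also bears on words of high or low GC.

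To name genes, each region was given to the protein-coding gene with the nearest start site. Nearness says nothing of which gene a region acts on, and genes with much sequence around them collect more regions. Of 20149 protein-coding genes, 3409 (16.9%) were nearest to at least 1 HET-1A-only distal region and 450 (2.23%) to at least 3, against 13% and 1.63% for the KYSE-30-only regions. Genes with more regions also more often had a promoter peak. HET-1A library 2 had a peak within 3 kb of a start site of 34.2% of genes with no region (33.5 to 34.9%), 39.4% with 1, 43.4% with 2 and 46.9% with at least 3 (42.3 to 51.5%). KYSE-30 library 6 had one at 28.6%, 27.7%, 30.9% and 34.7% of the same genes.

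The genes with the most regions differed in local background and in the sequence nearest to them, from 0.0913 Mb at ZDHHC11B to 3.93 Mb at LRRC4C. These traits did not form separate groups. HAS2 and LRATD2, at a raised background, had 0.984 and 0.945 Mb, and H3Y1 and RAD51B had 0.922 and 0.850 Mb. The part of either trait in the counts was not tested. TRIB1, a pseudokinase that acts on C/EBP proteins, had 18 regions, 10 of them with an AP-1 core, at a median relative background of 2.96 on chromosome 8. On the same chromosome HAS2, which makes hyaluronan, and LRATD2 had 11 and 10 at 1.97 and 1.87. CDH18, a type II cadherin, had 15 regions at a relative background of at most 1.38, with fold enrichments of 3.28 to 6.45, and CITED2, a transcriptional co-regulator, had 11 at a median of 1.17, all in introns of annotated genes and 77857 to 1088235 bp away. CTNND2, a delta-catenin, and the histone variant gene H3Y1 on 5p and IFTAP on 11p had 12 each, the neural adhesion genes CNTN5 and LRRC4C 11 and 10, the recombination gene RAD51B 10 within 140073 bp, and ZDHHC11B 10. All 12 regions given to IFTAP were at least 553116 bp from it. The AP-1 core stood in 5 regions each at CDH18 and CITED2, and in 4 each at IFTAP and LRRC4C. It stood in 3 each at CTNND2, CNTN5 and HAS2, in 2 each at H3Y1, RAD51B and LRATD2, and in none at ZDHHC11B. KYSE-30-only regions at these genes numbered 0 (CNTN5, LRRC4C) to 5 (HAS2). With only regions at a relative background of at most 1.5, a limit chosen after the data were seen, CDH18 kept 15, CITED2 10 and CNTN5, H3Y1, IFTAP and LRRC4C 9 each, whereas TRIB1 kept 1, HAS2 and LRATD2 2 each and ZDHHC11B 1.

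The gene lists were set against the amount of sequence nearest to their genes. Over all protein-coding genes this gave 1.77 HET-1A-only, 1.32 KYSE-30-only and 0.441 shared distal regions per Mb. The 26 genes of basal squamous keratins and adhesion had 27 HET-1A-only regions at 13 genes, or 6.61 per Mb, and 6 KYSE-30-only regions at 4 genes, or 1.47 per Mb. The shared distal regions at these genes also stood at 1.47 per Mb, above their level over all genes. PERP, a desmosome protein of the p63 programme, had 5 regions 18.7 to 117 kb away with fold enrichments of 3.26 to 4.64, and no KYSE-30-only or shared distal region. ITGA3, the integrin alpha chain that binds laminin, had 4 within 28.8 kb (3.31 to 4.23) and likewise no other. CDH3 had 3 regions 9.68 to 12.8 kb away with fold enrichments of 4.58, 5.29 and 5.30, each with an AP-1 core. LAMA3, a chain of the laminin of epithelial basement membranes, had 3 (3.56 to 5.80) and 2 KYSE-30-only regions. The AP-1 core stood in 2 of the ITGA3 regions, 1 at LAMA3 and none at PERP. The median relative background of this list was 1.67, above the 1.36 of all regions, and its part in the density was not tested.

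The 21 epithelial transcription factors had 30 HET-1A-only regions at 9 genes (5.16 per Mb) and 15 KYSE-30-only regions at 8 (2.58 per Mb), and shared distal regions stood at 1.55 per Mb. KLF4 had 8 HET-1A-only regions 14.4 to 604 kb away, 4 with AP-1 and with fold enrichments of up to 5.58, and 3 KYSE-30-only ones. TFAP2A, an activator of epidermal genes, had 7, of which 5 held AP-1, against 1. ELF3, GRHL3 and TFAP2C had 3 each, those of ELF3 in a row of 16.3 kb, at median relative backgrounds of 1.75, 1.25 and 2.23. Of these, 1 at ELF3 and none at GRHL3 or TFAP2C held an AP-1 core. The 28 AP-1 and related bZIP genes had 29 regions at 16 genes (5.79 per Mb against 1.80 for KYSE-30-only and 0.998 for shared). MAF and NFE2L3 had 3 each, and all 3 at MAF but none at NFE2L3 held an AP-1 core. The 25 NF-kappaB and cytokine genes had 16 regions at 9 genes (8.78 per Mb against 4.39, and 0.549 for shared), on only 1.82 Mb of sequence. TNFAIP3 had 3 of these, 13.4 to 58.7 kb away, each with an AP-1 core and with fold enrichments of 4.08, 4.79 and 4.95, beside 2 KYSE-30-only regions.

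For the TGF-beta and BMP pathway, 15 of 30 genes had 31 regions (3.04 per Mb against 1.77). SMAD3, which carries the TGF-beta signal to the nucleus, had 5, the ligand BMP4 4 and the co-receptor TGFBR3 3. The Hippo pathway had 15 regions at 11 of 22 genes (3.0 against 1.40 per Mb), of which YAP1 had 3, the strongest at 6.22 on 48 tags. The matrix proteases and inhibitors had 21 at 14 of 36 (3.84 against 2.2), with 3 at TIMP3 (4.45 to 5.83). Shared distal regions stood at 1.08 per Mb in the TGF-beta and BMP list, 1.40 in the Hippo list and 1.1 in the matrix list. Over all genes the shared regions stood at 0.441 per Mb, so these lists were also dense in regions shared with KYSE-30. In the Wnt and cadherin lists the shared regions stood at 0.462 and 0.445 per Mb, close to all genes. The median relative background of the matrix list was 1.69, above the 1.36 of all regions. It was 1.75 at SMAD3 and 1.83 at YAP1, and 1.25 at BMP4, 1 at TGFBR3 and 1.14 at TIMP3. The AP-1 core stood in 2 regions at SMAD3, 1 each at TGFBR3 and YAP1, and none at BMP4 or TIMP3. The Wnt pathway had 20 at 15 of 36 (2.31 against 2.08), with 4 at TCF7L2, which also had 5 KYSE-30-only regions. The cadherins had the most regions of any list, 66 at 15 of 22 genes against 24 KYSE-30-only at 8, but on 27.0 Mb of sequence, or 2.45 against 0.889 per Mb. Of these, CDH18, CDH12, CDH6 and CDH10 lie on 5p, with 15, 8, 7 and 5 regions. The sequence nearest to these genes was 2.67, 1.92, 2.2 and 1.77 Mb, in that order. Arm 5p as a whole held 5.55 HET-1A-only regions per Mb, against 1.77 over all genes. The part of the arm in the density of the cadherin list was not tested. The CDH10 and CDH6 regions at 8.11 and 8.98 are among the 10 strongest of library 2. CDH5 had 6 and CDH4 5, the latter at a median relative background of 2.24.

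In 3 lists the KYSE-30-only regions were the denser, and in 1 both were equal. The ERBB receptors, ligands and MAPK feedback genes had 22 HET-1A-only regions at 9 of 23 genes and 46 KYSE-30-only at 16 (2.13 against 4.45 per Mb). SPRED2 and ERRFI1, inhibitors of RAS and EGFR signalling, were exceptions in part, with 8 HET-1A-only regions against 1, and 4 against 4, and TGFA had 3 against 1. The foregut transcription factors had 8 HET-1A-only regions at 8 of 18 genes against 20 at 5 (1.47 against 3.67 per Mb), and the p53 target genes 3 at 3 of 22 against 6 at 4 (2.31 against 4.61 per Mb). The mesenchymal genes had 18 of each kind, at 10 and 11 of 34 genes (1.36 per Mb for both), with COL5A1, COL6A3, TWIST2 and ZEB2 at 3 each. Their median relative backgrounds were 2.63, 1.26, 2.06 and 1, in that order. The list values are counts over few genes in 1 library of each line, set beside the values of all genes, and no list was tested.

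**Figure D5:**
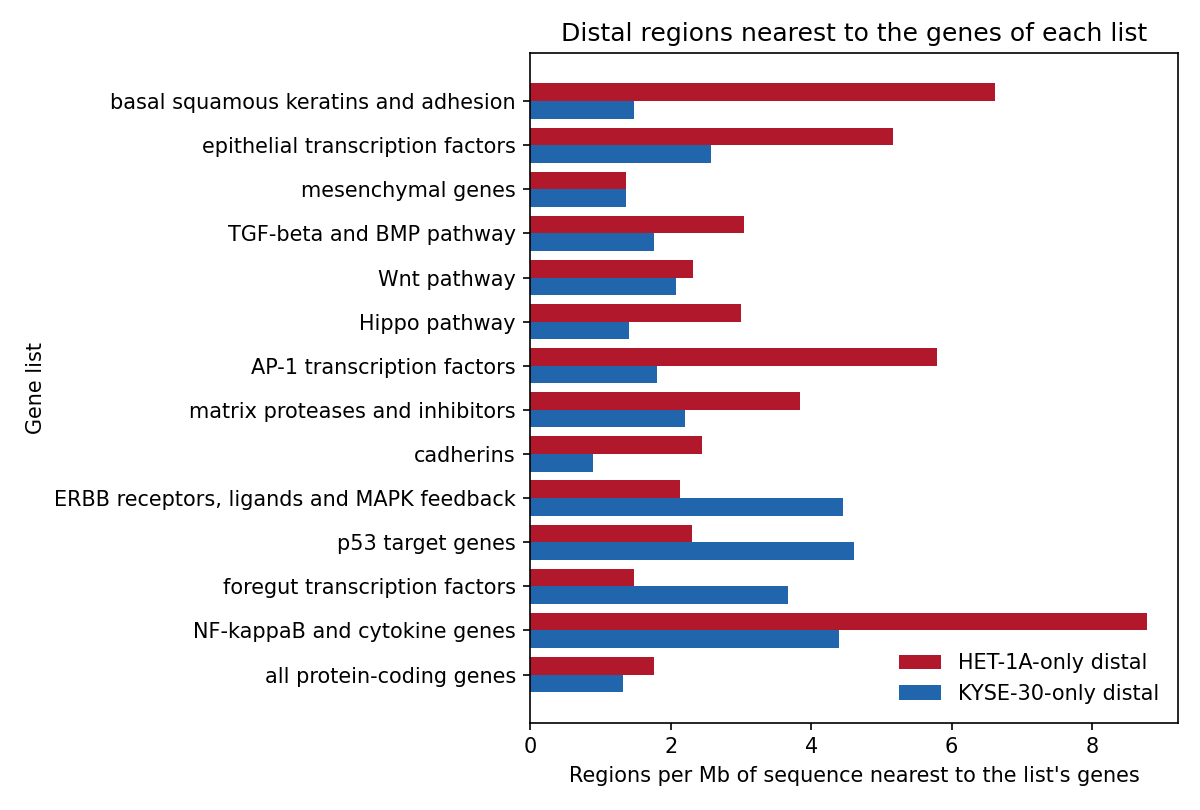
Distal regions per Mb of sequence nearest to the genes of each list, HET-1A-only in red and KYSE-30-only in blue, with all protein-coding genes as the bottom pair (1.77 and 1.32). NF-kappaB and cytokine genes (8.78) and basal squamous genes (6.61) have the longest red bars, and the ERBB, p53 target and foregut lists have a longer blue than red bar.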

How the data were processed

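ATAC-seq peak lists of 6 libraries from HET-1A, KYSE-30 and KYSE-150 cells were analysed. The authors trimmed the reads, mapped them to hg19 with Bowtie2 2.3.3.1, marked duplicates with Picard 2.2.1, removed blacklisted regions with bedtools 2.7.1, corrected read ends for the Tn5 offset, used fragments shorter than 100 bp and called peaks per library with MACS2 2.1.0.20160309 at a q-value of 0.05, extending reads to 200 bp, without a control library and without pooling replicates. The deposited lists give a score, a fold enrichment (a ratio of summit tags to local background, each plus 1) and −log10 p-values and q-values, all valid within a list only. Lists of this kind hold no read totals. A stricter caller or deeper sequencing of the short lists could change which regions count as HET-1A-only.

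Tags and local background were recovered from fold enrichment and p-value by the Poisson model (−log10 p within 0.001, 99.6 to 100% of peaks), which was tested on simulated data. Start sites, exons and genes came from GENCODE 44 lifted to hg19. Relative background is a peak's local background over the smallest of its library. Chromosome arms were split at the longest gap in the sequence. Motifs (19) were searched on both strands in 200 bp around the summit of the stronger HET-1A peak and 10 kb away. The sequence nearest to a gene runs to the midpoints between neighbouring protein-coding start sites. Sequence was read with pysam 0.24.0, p-values with scipy 1.17.1, tables with pandas 2.3.3 and numpy 2.4.6, and figures drawn with matplotlib 3.10.9 (Python 3.11.15).

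The regions, the 13 gene lists and the motifs were chosen with earlier results of these data known. Named were the 10 strongest regions of library 2, all regions called in both HET-1A libraries, the 5 strongest of library 1 alone, the 3 widest, the 12 genes with most regions, list genes with at least 3 regions (at most 6 a list), the 8 fullest 1 Mb windows, the 5 longest rows of regions (ties and other rows of 4 were added after their values were seen) and the 12 words with the largest difference. The chromosome arms, the classes of background and the sequence nearest to genes were added after values were seen. Of the items this rule names, 1 window and 1 list gene are not reported here. Nothing was tested between lines. The labels do not say from which cultures the libraries came, beyond 2 biological replicates a line. The alternatives concerned the q-value, fold enrichment, each library, the overlap, the start sites, the distance, the segments and the sequence searched.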

Additional observations from a re-analysis of the deposited data

How the results depend on the processing

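The number of regions, 5466, stayed within 1.5 times of itself under 12 of 16 alternatives, and so did the 450 genes with at least 3 regions, the CTCF share of 1.43% kept within its interval under 15 of 17, and the AP-1 share of 28.5% under 10 of 17. Requiring a fold enrichment of at least the median of KYSE-30 library 6 (5.47) left 474 regions with an AP-1 share of 45.4%, a CTCF share of 2.11%, a median fold enrichment of 5.94 and 2 genes. At q under 0.001 the AP-1 share was 31.4% and the median fold enrichment 4.14. At 10 kb from start sites 3127 regions, 226 genes and an intergenic share of 47.2% were left. The intergenic share was 40.1% at 1 kb and 40.4% with protein-coding start sites only, against 43.2%. With the segments kept in, the AP-1 share was 26.9% and the median fold enrichment 3.83, and over the whole merged region the AP-1 share was 31.7%. At a relative background of at most 1.5, chosen after the data were seen, there were 3189 regions, 215 genes, an AP-1 share of 30.6% and a median fold enrichment of 4.19. The cause of these shifts was not tested.

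With each library left out in turn, the number of regions ranged from 89 to 6711, the AP-1 share from 6.74 to 33.5%, the CTCF share from 0 to 1.45%, the intergenic share from 43.1 to 47.2%, the median fold enrichment from 3.91 to 4.57 and the genes from 0 to 630. The low counts and the low AP-1 and CTCF shares are those without HET-1A library 2, on which the set rests. Without KYSE-30 library 6, the AP-1 share was 33.5% and there were 6711 regions. No paired analysis was possible because the lines share no library numbers and no result comes from a test. The length of the peak lists limits the set, since the short ones hold little to compare with.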

Other observations

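Some regions of the set are wide or repetitive. The widest covered 966 bp of intergenic sequence 60335 bp from RASA3, at chr13:114740369-114741334 (fold enrichment 3.85), 909 bp in an intron of MTHFD1L, a mitochondrial folate enzyme, at chr6:151388742-151389650 (5.43), and 896 bp in the CD96 intron. A 4-letter word occurred at least 15 times in the 200 bp window of 71 of the 5386 regions with a library 2 peak (1.32%, interval 1.05 to 1.66%) and of 2 of the 88 with a library 1 peak (2.27%, 0.625 to 7.91%). Words unlike the AP-1 core were also more frequent than in the downstream windows. The word AGCCCTG stood in 9.81% of regions against 4.69%, and in 7.29% of the KYSE-30-only regions. The word CAGCAGG stood in 10% against 4.95%, and in 9.16% of the KYSE-30-only regions. The word CCAGGGC stood in 10% against 5.01%, and in 6.26% of the KYSE-30-only regions. The distal regions shared with KYSE-30 held AGCCCTG in 9.45%, CAGCAGG in 9.38% and CCAGGGC in 9.89%, close to the HET-1A-only regions.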
